A study of Mus musculus with 12 samples.

Results

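The question addressed here was how high promoter methylation ended in the colon epithelium of mice with induced Dnmt3b, whether the short and the long fragments of the same animals gave the same picture, and how far the animals differed from each other. The libraries compared were the 6 from induced mice: a long-fragment library (120 to 220 nt) and a short-fragment library (40 to 120 nt) from each of 3 mice, paired by mouse number. All were C57BL/6 mice on a chow diet, and DNA was taken from isolated colon epithelial cells. The drinking water of induced mice held doxycycline at 0.5 g/l for 3 months and was renewed every 3 days. The 3 control mice, used below for comparison, drank regular water, so an effect of doxycycline itself and of Dnmt3b cannot be told apart. The labels do not say which promoter drives Dnmt3b, whether the control mice carried the transgene, or the age and sex of the mice. The members are the 6127 genes listed in all 6 induced libraries, out of 12098 genes listed anywhere in the 12 libraries. Each value is the mean CpG methylation of a gene's promoters, given here as a level in percent, and differences are in percentage points, long minus short unless stated.

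As background, Dnmt3b is a DNA methyltransferase that writes methyl groups onto unmethylated CpG dinucleotides. CpG-rich promoters are normally kept unmethylated in most tissues, whereas promoters of many germline-specific genes and of genes on the inactive X chromosome are methylated in somatic cells. Bisulfite sequencing of MspI digests reads CpGs near CCGG sites, and the length between neighbouring CCGG sites decides in which gel band, and so in which of the libraries, a piece of a promoter appears. The fractions of 1 mouse therefore read different pieces of the same promoters in the same cells.

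The long-fragment libraries listed 7860, 8108 and 7928 genes in mice 1, 2 and 3, and the short-fragment libraries 10358, 10674 and 10838. Read depth per promoter is unknown, since the tables hold fractions only. Of 10 epithelial marker genes, 5 were listed in all 6 libraries (Epcam, Cdh1, Cdx2, Cldn7 and Esrp1), and each of them was below 5% in every library. Krt18, a keratin of simple epithelia, had 26.2 to 39.5% in the 5 libraries that listed it. Krt8 and Krt19 were at most 3.86% in long fragments, and Hnf4a had 19.2 and 10.4% in the short libraries of mice 2 and 3. Of 10 immune and 10 stromal, muscle and endothelial markers, none was in all 6 libraries. Among those with values in 3 libraries of a fraction, only the T-cell kinase gene Lck was low (0.113%, short fragments). The pericyte receptor gene Pdgfrb had 88.6% and Coro1a 73.6% in long fragments, against control means of 26.1 and 12.6%. Myh11 had 76.1% and Kdr 65.4% in short fragments, against control means of 9.75 and 1.99%. Promoter methylation does not measure expression, so these markers do not count the cell types.

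Most promoters ended unmethylated, and a block of them ended between 50 and 80%, in both fractions alike. The share of genes under 10% was 63.6, 64.1 and 64.1% in the long and 68.6, 68.3 and 68.1% in the short libraries of mice 1, 2 and 3. The share at 50% or more averaged 18.5 ± 2.31% in long and 17.7 ± 1.32% in short fragments (SD, n = 3 mice each). Between these, at 10 to under 50%, stood 17.6 ± 2.57% of genes in long and 14.02 ± 1.05% in short fragments. The difference in that middle class was 4.73, 4.23 and 1.78 points in mice 1, 2 and 3, so the long fraction was higher in each mouse (exact sign-flip permutation test over 3 pairs, two-sided p = 0.25, the smallest it can give). By means over mice, 3725 genes (60.8%) were under 10% in both fractions and 988 (16.1%) at 50% or more in both. The means of both fractions lay within 10 points of each other for 4855 genes (79.2%). Across the 6127 genes, which share animals and are not independent replicates, the mean levels of the fractions correlated with Pearson's r = 0.895 and Spearman's rho = 0.709.

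**Figure D1:**
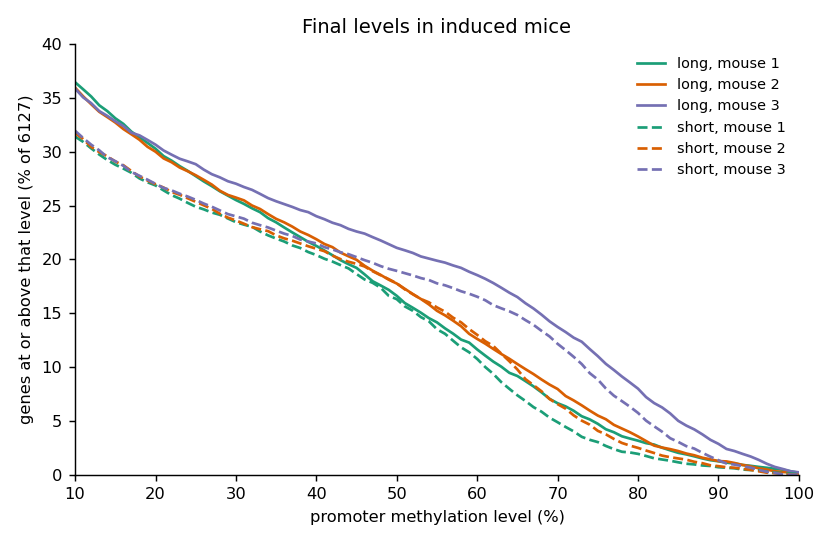
Percentage of the 6127 genes (vertical axis) whose promoter level was at or above the value on the horizontal axis (%), 1 line per library of the induced mice, solid for long and dashed for short fragments, coloured by mouse. At 80% the lines of mouse 3 stand at 7.997% (long) and 5.75% (short), above those of mice 1 and 2 at 3.17 and 3.56% (long) and 1.94 and 2.50% (short).

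The mean level over all 6127 genes was 17.7, 18.0 and 20.5% in the long libraries of mice 1, 2 and 3, and 15.8, 16.6 and 18.1% in the short ones. Long fragments were thus higher by 1.85, 1.43 and 2.35 points, a mean of 1.88 ± 0.457 (SD, n = 3 pairs; exact sign-flip permutation p = 0.25, the smallest possible). The median levels lay close together, at 0.753 ± 0.110% (long) and 0.65 ± 0.101% (short). In control mice the long fragments were also higher. Over the 5309 genes listed in all 12 libraries the difference was 1.62 ± 0.453 points in induced and 1.13 ± 0.0639 points in control mice (SD, n = 3 mice each). The groups' ranges overlapped: 1.18 to 2.09 points in induced and 1.07 to 1.20 points in control mice (exact permutation test, two-sided p = 0.20).

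Complete methylation was rare. A level of 80% or more was reached in both fractions by 73 genes (1.19%) and a level of 90% or more by 21, judged by means over the 3 mice. No gene stood at 100% in all 6 libraries, 36 genes were at 80% or more in all 6 and 12 at 90% or more. At the other end, 87 genes were at 0% in all 6 libraries and 1830 (29.9%) below 1% in all 6. Counted mouse by mouse, 53 genes were at 80% or more in both fractions of mouse 1, 79 of mouse 2 and 229 of mouse 3 (0.865, 1.29 and 3.74%). The count of such genes therefore depended on the animal, and the share by means was 1.86% without mouse 1 and 0.947% without mouse 3.

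Most of these highly methylated promoters were methylated in control mice already. Of the 73 genes at 80% or more in both fractions, 42 had a control mean of 50% or more, 23 of 10 to under 50% and 8 of under 10%. For promoters that started low the upper end of the range lay close in the fractions, and somewhat higher in long fragments. Among genes under 10% in control long fragments (4775), the induced level had a 95th percentile of 70.0% and a 99th of 79.97%. Among genes under 10% in control short fragments (5583) these were 69.3 and 77.9%. Only 48 of the former (1.01%) and 33 of the latter (0.591%) reached 80%. In mouse 3 alone, 260 and 218 of these genes reached 80%, against 60 and 29 in mouse 1 and 73 and 49 in mouse 2. The 99th percentile in mice 1, 2 and 3 was 82.2, 81.9 and 90.8% in long and 75.5, 79.2 and 87.8% in short fragments. Promoters at 80% or more in control mice ended at a median of 95.3% in long (33 genes) and 94.0% in short fragments (25 genes).

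The genes with the highest final level among those under 10% in every control library that listed them included regulators of signalling and of neuronal fate. Akap5, an anchoring protein for protein kinase A, reached 86.9, 84.8 and 96.8% in the long and 87.6, 94.4 and 91.0% in the short libraries of mice 1, 2 and 3, from control means of 2.39% (long) and 0% (short). Nhlh2, a neuronal helix-loop-helix transcription factor, had 71.3, 87.4 and 98.0% (long) and 77.9, 87.0 and 89.9% (short). For both genes the fractions overlapped and the limma test found no difference (adjusted p = 0.903 and 0.965). Gpr153, an orphan receptor, followed the same order of mice in short fragments, with 77.1, 85.6 and 89.99%, and had 64.0, 89.2 and 89.1% in long fragments. Chac1, which degrades glutathione, stood apart: its long fragments had 98.1, 94.5 and 93.9% and its short fragments 84.0, 74.4 and 72.7%, without overlap (difference 18.5 ± 1.98 points, SE; adjusted p = 0.0763). Plekho1 likewise had 91.4, 92.2 and 93.9% in long against 64.3, 68.6 and 88.1% in short fragments (adjusted p = 0.294). Of Bcat1, a branched-chain aminotransferase gene, the fractions listed different promoters, with means of 87.5% (long) and 77.4% (short). The same rule named Fam131a and 2310014L17Rik, with overlapping fractions and means of 78.0 to 92.8%.

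Gene groups ended at very different levels, and the medians of the fractions lay within 10 points of each other in every list except the Wnt antagonists. Over all 6127 genes the median level was 1.32% in long and 0.853% in short fragments. Promoters of developmental transcription factors (175 of 241 names listed in all 6 libraries) had medians of 63.7% (long) and 66.1% (short), and 124 of them were at 50% or more in both fractions but only 2 at 80% or more. Their medians in control mice were 1.87 and 1.997%. Channel genes for potassium and sodium (40 measured) had 62.0 and 63.9%, and 28 of them were at 50% or more in both. Genes on a list of promoters hypermethylated in colorectal cancer (33 measured) had 61.0 and 61.1%, and cadherins and protocadherins (18 measured) 56.6 and 63.9%. In contrast, the 36 ribosomal protein genes had medians of 0.407 and 0.243%, with 26 under 10% in both fractions, and the 25 colon epithelium genes 0.433 and 1.37%, with 17 under 10% in both. The 10 genes of the methylation machinery had 1.09 and 4.11%, with 8 under 10% in both.

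**Figure D2:**
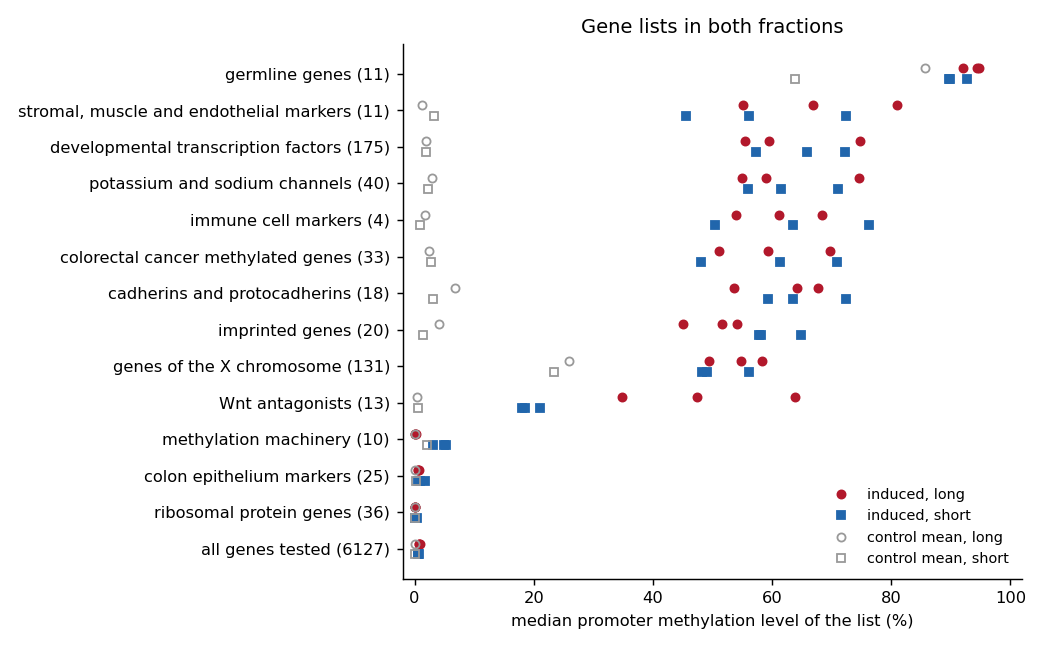
Median promoter methylation level (%) of each gene list (number of measured genes in brackets) in each library of the induced mice, red circles for long and blue squares for short fragments, with open symbols for the median of the control means. Developmental transcription factors span 55.4 to 74.7% in the libraries of the induced mice, and ribosomal protein genes stay below 1%.

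Germline genes, many of whose promoters are methylated in normal somatic cells, formed the most highly methylated list. Their 11 measured members had medians of 93.5% (long) and 92.8% (short), and 7 were at 80% or more in both fractions. Their control medians were 85.6% (long) and 63.9% (short). Sycp3, a component of the synaptonemal complex, had 98.9, 96.9 and 96.3% in long and 95.1, 95.5 and 95.2% in short fragments, against control means of 92.6 and 84.9%. Slc25a31, an ADP/ATP carrier of the testis, and Mael, which acts in transposon silencing in the germline, were likewise at 88.9% or more in all 6 libraries. Dazl, an RNA-binding protein of germ cells, was lower: 72.6, 59.0 and 65.2% in long and 56.6, 54.7 and 46.4% in short fragments. Its fractions did not overlap, but the difference of 13.1 ± 3.96 points did not pass the test (adjusted p = 0.285). Dazl had control means of 42.4% (long) and 42.2% (short). Smc1b, the meiotic cohesin subunit, differed similarly, with 85.7 to 100% in long and 74.4 to 82.6% in short fragments (adjusted p = 0.384). Its control means were 59.3% (long) and 11.8% (short, from control mice 1 and 2). Of these 11 genes 0 were called in either direction, where 4.16% of all genes were, so the count says nothing particular about the list.

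Imprinted genes split into low and high members: 8 of 20 were under 10% and 10 at 50% or more in both fractions. Medians were 54.2% (long) and 63.3% (short), from control medians of 4.02 and 1.34%. Cdkn1c, a cell-cycle inhibitor, had 88.2, 88.4 and 91.1% in long and 75.7, 66.2 and 78.7% in short fragments (adjusted p = 0.143). Its control means were already 74.4% (long) and 29.3% (short). Plagl1, a zinc finger gene, was the reverse, at 57.3, 45 and 47.2% in long and 69.8, 62.1 and 75.4% in short fragments (adjusted p = 0.178). Its control means were 57.6% (long, 26.8 and 88.4% in control mice 1 and 2) and 41.1% (short). In induced mice the fractions of both genes were without overlap. Dio3, the deiodinase that inactivates thyroid hormone, overlapped, with 61.3, 73.4 and 98.0% (long) and 67.0, 76.5 and 87.4% (short). Its control means were 7.82 and 0.31%. The test called 0 of the 20 in either direction, again beside 4.16% of all genes.

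Most stromal, muscle and endothelial genes on the list ended high. The 11 stromal, muscle and endothelial genes had medians of 66.5% (long) and 62.4% (short), and 7 were at 50% or more in both, among them the endothelial claudin gene Cldn5 (82.6, 88.6 and 83.4% in long, 80.02, 78.4 and 93.5% in short fragments). The 4 immune genes listed in all 6 libraries included Lat, a T-cell adaptor, at 91.7 to 100% in all 6 libraries, and Cxcr4, a chemokine receptor, at 36.9 to 51.5%. Lat already had control means of 81.9% (long) and 88.3% (short), whereas those of Cxcr4 were 0.00667 and 0%. Among epithelial genes, the enteroendocrine secretory protein Chga had 68.4, 70.5 and 85.3% in long and 36.5, 60.1 and 61.8% in short fragments (adjusted p = 0.221). The tuft-cell marker Dclk1 had 56.8 to 81.9% over the 6 libraries, and the sodium/proton exchanger Slc9a3 5.20 to 42.7%. None of these passed the test between fractions.

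For single genes the fractions could disagree entirely. The limma fit with mouse as a block found 255 of 6127 genes (4.16%) different at an adjusted p under 0.05: 162 higher in long fragments (2.64%) and 93 lower (1.52%). In 959 genes (15.7%) the 3 long values lay above the 3 short values and in 826 (13.5%) below. Long was higher in each of the 3 mice in 1262 genes (20.6%) and lower in 1129 (18.4%). Differences above 20 points were found in 368 genes (6.01%) and below -20 points in 162 (2.64%). The median size among the 255 was 23.0 points, from 2.17 to 97.5. In 45 of them both fractions were under 10% and in 13 both were at 50% or more. Without any 1 mouse no gene passed, while 1014, 932 and 966 genes had an unadjusted p under 0.05 without mice 1, 2 and 3. With 2 pairs left the fit can hardly pass any gene after adjustment. The 0 therefore does not show that the calls depended on an animal. With all 3 pairs the count was 696 without the block and 44 with a mean-variance trend in the fit.

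**Figure D3:**
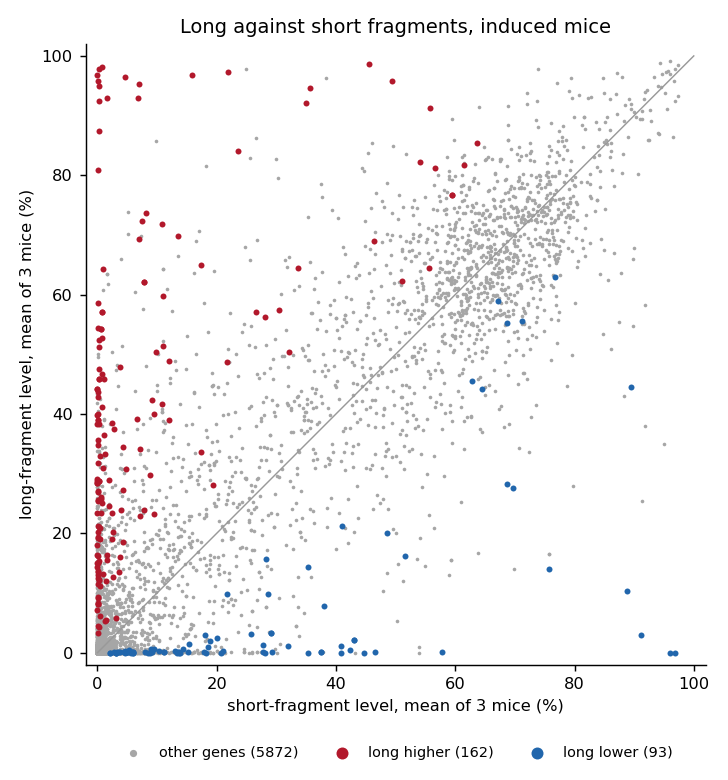
Mean level in long (vertical axis, %) against short fragments (horizontal axis, %) for the 6127 genes, each point a gene and a mean of 3 induced mice, with the line of equality. Red points passed the test with long higher (162), blue points with long lower (93), and many of these lie along an axis, methylated in 1 fraction and near 0% in the other.

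At the extreme, 10 genes were at 90% or more in long and under 10% in short fragments, and 3 were the reverse. Cnp, which encodes a myelin phosphodiesterase, had 99.1, 96.4 and 99.2% in the long and 1.85, 0 and 0.20% in the short libraries of mice 1, 2 and 3. Its difference was 97.5 ± 0.685 points (SE; adjusted p = 0.00346). Nlk, a kinase that modulates Wnt signalling, had 99.9, 93.5 and 99.9% in long and at most 0.41% in short fragments (97.5 ± 1.95 points; adjusted p = 0.0107). Pxn, the focal adhesion adaptor paxillin, had 97.6, 99.2 and 90.4% against 0.03% in each short library. The others with long at 90% or more were Atp5sl, Josd2, Zfp341, BC011248, Vars2, Pigyl and Mfsd5. Tprgl followed at 86.2 to 89.1% in long and at most 0.44% in short fragments. All of these readings were without overlap, and all named here passed the test.

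In the opposite direction, Ushbp1 had 0, 0.04 and 0.04% in long and 98.5, 96.6 and 95.3% in short fragments (difference -96.8 ± 0.846 points, SE; adjusted p = 0.00415). The gene 5430437P03Rik had the same 3 long values and 95.9, 95.7 and 96.4% in short fragments. Asphd1 had 0.19, 8.66 and 0% against 88.9, 93.1 and 91.3%. B3gnt9, a glycosyltransferase gene, had 8.11 to 12.03% against 80.5 to 95.8%. Smaller differences of this kind were seen for Tagln2, an actin-binding transgelin (at most 0.32% in long, 55.1 to 60.2% in short), for Mcrs1 (0% in all long, 42.5 to 46.7% in short) and for Tapbp, the peptide-loading factor tapasin (23.7 to 30.8% in long, 65.8 to 71.9% in short). Mpzl2, an adhesion gene, was methylated in both, at 41.7 to 50% and 83.9 to 92.5%. The short value of Rai1, a transcriptional regulator, averages a promoter listed in that fraction only (90.1 to 96.3%) and one listed in both (at most 1.03%). A promoter listed in 1 fraction only occurred in 57 of the 6127 genes and in 7 of the 255, and 6 and 1 of these, respectively, shared no promoter at all.

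These opposite readings can be set beside the sequence. The windows shown run from 250 bases before to 50 after the RefSeq start (assembly GRCm38.p6) and are given because the pieces between their CCGG sites, in capitals, differ in length. Ushbp1 (chr8:71395752-71396051, minus strand) and 5430437P03Rik (chr8:71396605-71396904, plus strand) are neighbours on opposite strands and shared their long values. The piece between the CCGG sites is 79 bases long in the Ushbp1 window, within the short band, and 195 bases long in the 5430437P03Rik window, within the long band. The Cnp window (chr11:100574689-100574988, plus strand) holds pieces of 91 and 8 bases and none of the long band.
Ushbp1: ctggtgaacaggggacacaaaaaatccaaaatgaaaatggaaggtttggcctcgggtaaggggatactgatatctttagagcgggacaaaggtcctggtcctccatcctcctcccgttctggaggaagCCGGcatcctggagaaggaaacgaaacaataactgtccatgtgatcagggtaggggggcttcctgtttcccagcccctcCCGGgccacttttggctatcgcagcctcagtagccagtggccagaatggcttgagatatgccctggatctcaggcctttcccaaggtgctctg
5430437P03Rik: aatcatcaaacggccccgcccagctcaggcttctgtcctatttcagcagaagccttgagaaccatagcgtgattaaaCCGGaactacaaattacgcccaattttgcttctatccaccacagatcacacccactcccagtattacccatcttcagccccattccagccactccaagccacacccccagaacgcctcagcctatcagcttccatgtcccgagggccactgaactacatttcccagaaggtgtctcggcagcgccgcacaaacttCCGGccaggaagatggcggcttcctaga
Cnp: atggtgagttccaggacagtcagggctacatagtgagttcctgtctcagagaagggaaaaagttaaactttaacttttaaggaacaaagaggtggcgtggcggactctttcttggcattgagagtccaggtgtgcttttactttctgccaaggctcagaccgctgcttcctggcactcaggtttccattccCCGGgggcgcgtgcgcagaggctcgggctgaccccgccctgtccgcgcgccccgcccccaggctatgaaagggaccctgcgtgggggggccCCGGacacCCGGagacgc
The motif CCGG, the MspI site, reads the same on both strands and was found in 52.8% of all 32851 windows of the table. A piece in a window is a description of the reference, not a fragment the authors are known to have read. Windows were found for 78.7% of the 6127 genes, below the 80% set as the minimum, so a comparison of sequence features over all of them is void. Among the subsets that reached it, the median window held 26 CpGs for genes under 10% in both fractions (80.4% with a window), 13 for genes at 80% or more in both (82.2%) and 25.5 for genes called higher in long fragments (80.2%).

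The largest differences between fractions were mostly present in control mice too. Of the 72 genes more than 50 points apart, 57 were higher in long and 15 in short fragments (0.93 and 0.245% of all genes). Just inside that limit stood Pwwp2b at 50.1 points and just outside it Parn at 49.8. Control means in both fractions existed for 71 of the 72, and in 54 the control difference had the same sign and at least 50% of the size. Cnp had control means of 79.99% (long) and 0% (short), Nlk of 94.0 and 0.0233%, and Ushbp1 of 0.0533 and 88.3%. Of the 255 genes that passed the test, 254 had control means in both fractions, and in 146 the control difference lay within 10 points of the induced one. That limit is wide for the 49 called genes that differed by under 10 points in induced mice. In 150 the control difference had the same sign and at least 50% of the size, and in 87 it was under 5 points. Of the 145 called genes more than 20 points apart, 19 had a control difference under 5 points.

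In a smaller set of promoters the difference between fractions was not the one seen in control mice. A limma test on the within-mouse differences, 3 induced against 3 control mice, called 137 of 5309 genes (2.58%): 75 with a more positive difference in induced mice (1.41%) and 62 with a more negative one (1.17%). Wif1, a secreted inhibitor of Wnt ligands that is silenced by methylation in several cancers, had 25.4, 25.6 and 29.8% in long and 0, 0 and 0.14% in short fragments of induced mice. Its control means were 0.147 and 0.187%. The change of its difference was 26.95 ± 1.30 points (SE; adjusted p = 0.00694). Ptpn1, a tyrosine phosphatase that acts on the insulin receptor, had 55.7, 47.4 and 54.3% in long and at most 0.73% in short fragments, with control means of 8.31 and 0.03% (change 43.9 ± 2.32 points; adjusted p = 0.00828). Sdk1, a cell adhesion gene, stood above its control levels in both fractions, at 67.8, 54.7 and 70.8% in long and 36.2, 26.8 and 37.9% in short, from control means of 0.42 and 1.01% (adjusted p = 0.00694). The counts depended on the control mice: without control mouse 1, 2 or 3 they were 1, 2 and 14 genes in the positive and 0, 1 and 11 in the negative direction.

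In Fbxl11, Gadd45a, Lmtk3, EG545963 and Abcg1 the short fragments were further from control levels than the long ones. Fbxl11 (Kdm2a), a histone demethylase that binds unmethylated CpG islands, had 28.1, 26.5 and 28.6% in short and 0, 0.22 and 0% in long fragments, against control means of 3.13 and 0.11% (change -24.6 ± 0.861 points, SE; limma adjusted p = 0.00609). Gadd45a, a DNA-damage response gene, had 12.4, 14.5 and 13.6% in short and at most 0.52% in long fragments (change -13.3 points). Lmtk3, a kinase gene, had 67.9, 77.7 and 81.8% in short and 12.9, 13.6 and 15.7% in long fragments, from control means of 20.1 and 0.0267% (change -41.7 points; adjusted p = 0.0186). EG545963 had the same 3 long values as Lmtk3 and 57.7, 70.5 and 81.4% in short fragments. Abcg1, a cholesterol transporter gene, differed by -11.8 points in induced mice at levels of 5.94 to 15.1% (long) and 17.7 to 26.2% (short). Smu1, a splicing factor gene, went the other way, with 14.4, 14.3 and 14.3% in long fragments and 0% in the other 9 libraries. Whether these near-equal values rest on few reads could not be checked.

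The genes below were chosen after their values were seen, as those more than 50 points apart in induced mice and under 10 points apart in control mice (10 genes, 5 of which passed the test in induced mice). In 9 of them the long fraction was the higher. Gm88 had 77.4, 62.1 and 68.4% in long and 8.46, 4.2 and 8.37% in short fragments. Bmp8b, a bone morphogenetic protein ligand, had 67.6, 63.1 and 78.8% against 13.7, 10.5 and 16.5%. Kctd7 had 57.2 to 70.2% against at most 5.25%, and Scnn1g, the gamma subunit of the epithelial sodium channel of the distal colon, 47.5 to 68.0% against at most 1.60%. The set also held Ptpn1, Pwwp2b, Fam148c and, in the opposite direction, EG545963. Shroom3 (76.6 to 84.3% against at most 0.18%) and Pdgfra (45.5 to 87.0% against 2.38 to 31.5%) belong to it only by gene name, since the fractions listed different promoters of these genes. The windows of Wif1 (chr10:121033754-121034053, plus strand) and Bmp8b (chr4:123104911-123105210, plus strand) are shown because each holds a piece for either band, 124 and 65 bases in Wif1 and 137 and 60 bases in Bmp8b.
Wif1: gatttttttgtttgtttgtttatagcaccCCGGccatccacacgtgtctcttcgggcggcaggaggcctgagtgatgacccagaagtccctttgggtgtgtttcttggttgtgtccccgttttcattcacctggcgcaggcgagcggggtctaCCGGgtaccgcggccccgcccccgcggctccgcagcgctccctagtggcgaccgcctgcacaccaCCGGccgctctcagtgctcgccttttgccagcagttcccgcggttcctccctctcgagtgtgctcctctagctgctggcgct
Bmp8b: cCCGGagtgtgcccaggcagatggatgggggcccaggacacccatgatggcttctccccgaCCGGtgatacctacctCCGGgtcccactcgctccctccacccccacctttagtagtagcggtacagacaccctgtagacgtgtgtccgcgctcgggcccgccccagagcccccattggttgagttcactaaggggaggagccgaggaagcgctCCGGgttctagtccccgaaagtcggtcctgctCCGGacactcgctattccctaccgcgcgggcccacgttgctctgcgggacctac
In both windows the long piece and the short piece lie within 300 bases of each other, with CCGG again in capitals.

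**Figure D4:**
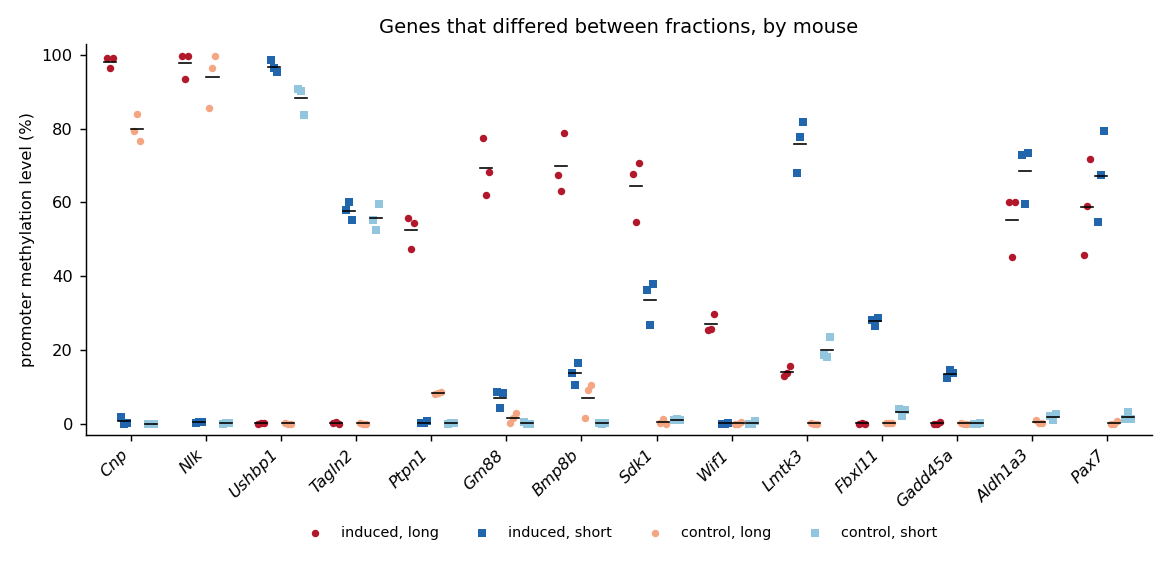
Promoter methylation level (%) of 14 genes in each mouse, with induced mice in dark and control mice in light colours, circles for long and squares for short fragments, and a bar for the mean of the 3 mice. Cnp, Nlk, Ushbp1 and Tagln2 differ between fractions in control mice as well, whereas Wif1, Sdk1, Gadd45a, Aldh1a3 and Pax7 are below 4% in all control libraries.

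Within the gene lists few members passed the test between fractions, and the share over all genes was 4.16%. Of 13 Wnt antagonists, Wif1 was higher and Kremen1, a Dickkopf receptor, lower in long fragments (Kremen1: 0, 1.42 and 0% against 4.17, 6.27 and 5.37%; limma adjusted p = 0.0447). The medians of this list, 52.5% (long) and 18.9% (short), lay further apart than those of the others, while the median difference of its members was -2.69 points. Apcdd1, a membrane-bound Wnt inhibitor, had 34.8, 53.9 and 70.5% in long and 18.6, 9.36 and 17.1% in short fragments (adjusted p = 0.231). Kremen2 ended at 84.0, 92.8 and 89.9% in long and 80.4, 85.8 and 89.2% in short fragments, from control means of 27.3 and 50.5% (change of the difference 26.99 points; adjusted p = 0.0346). Sfrp1, a secreted Wnt-binding protein, had 36.8, 57.1 and 71.4% against 68.7, 62.7 and 83.2% (adjusted p = 0.433), and Sox7 and Shisa3 ended at 43.1 to 79.0% and 44.9 to 86.3%.

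Of 33 colorectal cancer genes, Wif1 was called higher and Aldh1a3, a retinaldehyde dehydrogenase, lower (60.2, 45.3 and 60.2% in long against 72.8, 59.6 and 73.4% in short fragments; limma adjusted p = 0.0204). Of 175 developmental transcription factors only Pax7, a regulator of muscle stem cells, passed, at 45.7, 59.0 and 71.9% in long and 54.8, 67.3 and 79.3% in short fragments (-8.26 ± 0.447 points, SE; adjusted p = 0.0334). In both genes the ranges of the fractions overlapped, but short exceeded long in each mouse. Hoxb6 had 0% in all long libraries and 39.2, 66.4 and 56.0% in short ones, and did not pass (adjusted p = 0.0939). Hoxa2 was the highest of the list, at 96.9 to 98.98% in all 6 libraries, with control means of 79.7 and 78.2%.

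The ribosomal protein genes, although unmethylated as a group, had 3 members called higher and 1 called lower in long fragments. Rpl12 had 57.4, 55.4 and 58.2% in long and 0.86, 1.07 and 0.54% in short fragments (limma adjusted p = 0.00748), with control means of 75.5 and 0.0167%. Rpl5 had 35.7 to 45.4% and Rpl41 27.5 to 34.2% in long fragments, both with at most 0.17% in short ones and with long-fragment control means of 36.4 and 20.3%. Rpl38 was the reverse, with 9.09, 0 and 0.42% against 29.2, 22.6 and 25.4%, from control means of 0.0367% (long) and 2.26% (short). Among the other lists, Cdh1, the epithelial cadherin, was called higher at 4.01, 4.01 and 4.90% against 0, 0 and 0.65%, and the planar polarity cadherin Celsr1 higher at 19.11 to 27.8% against 4.51 to 11.3%. Kcnf1, a potassium channel subunit, was called lower, at 0.33 to 5.70% against 16.2 to 22.4%. Uhrf1, which guides maintenance methylation, had at most 0.10% in long and 16.7, 25.0 and 25.4% in short fragments, from a short-fragment control mean of 7.97% (adjusted p = 0.0795). No gene of the methylation machinery, immune or stromal lists passed.

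Where promoters were methylated in both fractions, mouse 3 stood above mice 1 and 2. In the 988 genes at 50% or more in both fractions, the mean level was 63.8, 66.8 and 78.0% in the long and 63.1, 67.2 and 75.3% in the short libraries of mice 1, 2 and 3. Mouse 3 was the highest animal in both fractions in 54.9% of them, mouse 1 in 2.73% and mouse 2 in 2.33%. At promoters with a mean under 10% the means were 1.76, 1.62 and 1.45% in long and 1.14, 1.15 and 1.22% in short fragments, so mouse 3 was lowest in long and highest in short. At 90% or more they were 92.2 to 94.95%. These classes were formed from the same values on a scale that ends at 0 and 100%, which by itself holds the mice close together at either end. The median SD between mice was 0.165 points (long) and 0.191 points (short) for genes with a mean under 10%, 11.02 and 8.55 points at 50 to under 80% and 3.50 and 2.90 points at 90% or more. In genes at 10 to under 50% it was 7.65 points in long and 3.72 points in short fragments. This class goes by the mean of all 6 libraries, so it also holds genes near an end of the scale in a fraction. Cnp, for example, had means of 98.2% in long and 0.683% in short fragments.

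**Figure D5:**
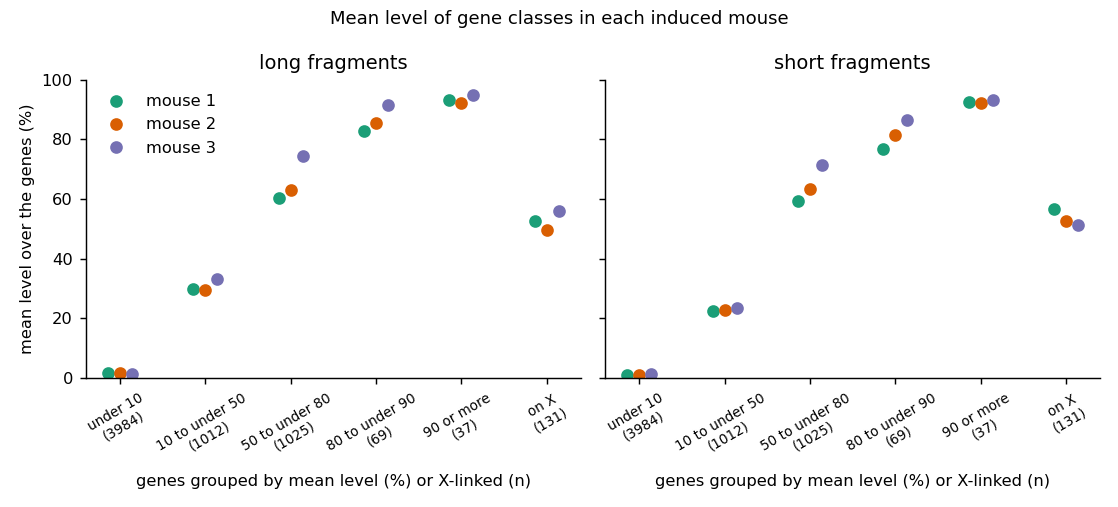
Mean promoter methylation level (%) over genes grouped by their mean level in the 6 libraries, and over X-linked genes, in each induced mouse, long fragments on the left and short on the right, with the number of genes in brackets. Mouse 3 stands above the others from 50 to under 90% (74.6% in long and 71.4% in short fragments at 50 to under 80%), but not among the X-linked genes in short fragments.

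No gene passed the limma F test of mouse differences after adjustment over 6127 genes, under this or any of the other settings run. The test misses most differences. On simulated levels in which mouse 3 was raised by 10, 20, 40 or 60 points, it recovered 0, 4, 14 and 16% of the genes. The absence of calls therefore does not show that the mice were alike. At an unadjusted p under 0.05 the induced mice had 350 genes (5.71%), 20.4% of the genes with a mean of 50 to under 80% and 1.38% of those under 10%. With a mean-variance trend there were 293, and on the logit scale 435. The 10 genes with the smallest p show what a shared order of the animals looks like. Igfbp3, an insulin-like growth factor binding protein, had 56.2, 62.5 and 74.6% in long and 46.6, 53.4 and 66.8% in short fragments of mice 1, 2 and 3. Foxd3, a neural crest transcription factor, had 70.5, 80.3 and 88.1% and 63.3, 74.8 and 82.7%. Adra2b, an adrenergic receptor, had 44.8, 47.4 and 77.4% and 46.9, 52.9 and 83.7%. In Pax7, Cdk5r2, Olfm2, Sez6 and Dtx1, as in these 3, mouse 3 was the highest in both fractions.

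Not every gene followed that order. Napb, an attachment protein of vesicle fusion, had 7.04, 31.5 and 8.61% in long and 20.03, 44.2 and 20.7% in short fragments, so mouse 2 was highest in both. Aldh1a3 was lowest in mouse 2 in both fractions. Of the 5 genes with the widest spread, only Gdnf had the same order of mice in both fractions. Cldn10, a claudin of tight junctions, had 26.5, 53.7 and 74.9% in long and 0, 86.9 and 77.4% in short fragments. Gdnf, a neurotrophic factor for enteric neurons, had 11.97, 75.3 and 82.1% and 42.9, 66.1 and 73.6%. Wscd1, Ccbe1 and 2410004A20Rik also had mice in different orders in the fractions. The steadiest genes at 40 to 60% were Prkcz, an atypical protein kinase C (45.3 to 48.9% over the 6 libraries), Dpysl4, Limk2, Meis2 and Kctd1. Prkcz had control means of 39.5 and 37.5%, whereas the homeobox gene Meis2 had 2.11 and 0.983% and ended at 42.1 to 55.2%.

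X-linked genes ended near 50% in both fractions, without mouse 3 leading in short fragments. The 131 measured had medians of 50.7% (long) and 50.4% (short), from control medians of 25.9 and 23.4%, and only 2 were under 10% in both fractions. Their means in mice 1, 2 and 3 were 52.8, 49.8 and 55.9% in long and 56.5, 52.8 and 51.3% in short fragments. Among the 129 of them with a mean of 10% or more, mouse 3 was the highest in both fractions in 10.9%, against 34.1% of all 2143 genes at that level, a difference that was not tested. Of the 131, 1 gene was called higher in long fragments (2.64% of all genes were) and none lower (1.52% of all genes), and 7 were at 80% or more in both (1.19% of all genes). The sex of the animals is not given, and its part in these levels was not tested.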

How the data were processed

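Reduced representation bisulfite libraries of short and long MspI fragments were analysed from 3 induced mice, with those of 3 control mice for comparison. Per the file headers, the authors' deposited tables, 1 per library, hold a methylation fraction from 0 to 1, averaged over CpGs, for each gene and each RefSeq promoter. Fractions were multiplied to percent. Aligner, build, promoter limits, coverage minimum and conversion efficiency are not given in the sources used, and the depth behind each fraction is unknown, so no counting interval is given. Levels from bisulfite sequencing also include unconverted cytosine and hydroxymethylcytosine.

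Genes listed in all 6 induced libraries were tested, 5444 of 6127 with at most 1 promoter listed in any library. These include genes such as Bcat1 and Pdgfra, whose fractions listed different promoters. Of the 6127 genes, 1024 (16.7%) had values identical to another gene and were kept. Long and short libraries were compared with limma 3.58.1 in R 4.3.3 (lmFit and eBayes on percent levels, mouse as a block; Benjamini-Hochberg over all genes, threshold 0.05), and differences between mice with the F test of the mouse terms in that fit. Unless another tool is named, an adjusted p comes from limma. Long minus short was compared between induced and control mice with limma on within-mouse differences. Mean levels were compared with exact permutation tests, whose smallest p is 0.25 for 3 pairs and 0.10 for 3 against 3. The scripts were tested on simulated data. There the test of long against short recovered 2% of planted differences of 10 points and 44% of those of 60 points. A gene that did not pass may therefore still differ. Summaries used Python 3.11.15 with pandas 2.3.3, numpy 2.4.6 and scipy 1.17.1, and plots matplotlib 3.10.9.

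The pairing comes from the series design, by which each mouse was split into 2 fractions. Deviations of the libraries of mice 1, 2 and 3 from their fraction means had correlations across genes of 0.173, 0.0449 and 0.354 between the fractions. Libraries of different mice had -0.244 to 0.0682, and for mouse 2 the values with mouse 1 (0.0682 and 0.0516) exceeded its own, so the values do not by themselves pair mouse 2. Correlations of levels across genes were 0.923 to 0.948 among long, 0.956 to 0.978 among short and 0.831 to 0.897 between long and short libraries.

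Named genes were the 10 largest called differences in each direction, the 8 highest levels among genes under 10% in control mice, the 5 largest and 5 smallest spreads between mice (the latter at 40 to 60%), the 10 smallest p for mouse differences, the 5 smallest p for induced against control mice, and in each of 12 gene lists the 4 highest levels and the 2 largest differences; not every one is described. List members that passed the test were added later. The members and lists were chosen with earlier results of these data known. RefSeq's gene table (GRCm38.p6) held 12076 (99.8%) of the gene IDs and was used for symbols and for the X chromosome. Promoter windows were copied from RefSeq sequences of that assembly. Alternatives were the logit scale, a mean-variance trend, a minimum mean of 5%, promoter-level values and genes with at most 1 promoter per library. Further ones were identical genes once, no block, other saturation limits and leaving out each mouse.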

Additional observations from a re-analysis of the deposited data

Results flagged for a closer look

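The following genes had a long minus short difference in induced mice that differed from that in control mice (limma on within-mouse differences, adjusted p under 0.05). Values are the induced minus control change of that difference, in points. Where the change was positive, it was 17.5 for Cnp, 26.99 for Kremen2, 26.95 for Wif1, 14.3 for Smu1, 31.4 for Sdk1 and 3.63 for Cdh1. Larger positive changes were 60.9 for Gm88, 53.6 for Fam148c, 50.4 for Kctd7, 49.3 for Bmp8b and 43.9 for Ptpn1. These genes, Shroom3, Pdgfra and EG545963 were chosen for a large induced and a small control difference, so a large change follows from the choice. Shroom3 (71.8) and Pdgfra (53.4) also stood out, but different promoters were listed in the fractions. Where the change was negative, it was -6.48 for 5430437P03Rik, -41.7 for Lmtk3, -55.8 for EG545963, -24.6 for Fbxl11 and -13.3 for Gadd45a. It was -6.65 for Pax7, -11.9 for Aldh1a3, -11.8 for Abcg1 and -20.3 for Rpl38. For Rai1 it was -25.2, but the methylated promoter of this gene was listed in short fragments only.

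Genes outside the comparison, because at least 1 induced library did not list them, were also more methylated in induced mice than in control mice. The 4087 genes listed in all 3 short but not all 6 induced libraries had a mean level of 18.0 ± 0.967% (SD, n = 3 mice), against 5.84 ± 0.313% in control mice over the 3970 of them listed there. The 1040 genes listed in all 3 long but not all 6 libraries had 26.1 ± 1.66%, against 12.4 ± 0.447% over the 765 listed in control mice.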

How the results depend on the processing

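The mean difference between fractions (1.88 points) was positive under each alternative run, from 0.103 (medians) to 2.43 points (every gene that a library listed). With medians, however, it was 0.14, 0.25 and -0.08 points in mice 1, 2 and 3, so its sign differed between mice. The share of genes at 80% or more in both fractions (1.19%) ranged from 0.783% (limit 85%) to 2.37% (limit 75%).

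Without the replicate block, 420 genes were higher and 276 lower in long fragments, in place of 162 and 93, and 236 of the 255 genes were shared. The logit scale gave 444 and 265, the mean-variance trend 37 and 7, and a minimum mean of 5% 321 higher. Without any 1 mouse both counts were 0. With 2 pairs left, fewer samples enter the fit, and for the other settings the cause was not tested. Over the 129 named genes, the difference changed sign without 1 mouse in 34, none of them among the 44 that passed the test. Among those recomputed in full, it ranged from -5.22 to 2.54 points for Akap5, -1.54 to 13.1 for 2310014L17Rik, -3.07 to 4.29 for Nhlh2, -6.99 to 1.37 for Gpr153, -11.1 to 3.2 for Shisa3 and -0.56 to 8.28 for Ikzf1. The test of mouse differences called 0 genes throughout.

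For induced against control mice (75 genes positive, 62 negative), a random replicate block over all 12 libraries gave 140 and 110, and the logit scale 101 negative. Leaving out 1 mouse gave 1 to 155 positive and 0 to 108 negative, with the low values when a control mouse was left out. Depth is unknown, and how many reads support a level of 0% could not be checked.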
